A study of Leucocroton havanensis with 4 samples.

Results

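Root and shoot of nickel-free plantlets of Leucocroton havanensis, a Cuban shrub of the Euphorbiaceae known for very high nickel concentrations in its tissues, were compared by RNA sequencing with 1 library per organ. Reads had been counted on 65936 numbered contigs, the assembled transcript sequences that stand in for genes here. The 52334 contigs with 10 or more reads in root or in shoot entered the comparison. Plantlets had been raised in vitro on Murashige and Skoog agar medium and harvested 6 weeks after germination, with roots and shoots taken apart. Both libraries compared here carried the label for growth without nickel, although the growth protocol, worded alike for all samples, gives 500 mg/L NiSO4. That dose was read as meant for the samples whose label says nickel. The other 2 libraries of the study, root and shoot with nickel, served here to repeat the organ comparison. They entered the scaling of library sizes but not the counts by which contigs were chosen. Of these, the shoot library is labelled as a re-analysis of an earlier sample. The sources used here state neither the number of plantlets per library nor whether root and shoot came from the same plantlets.

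The root takes up water and mineral ions from the medium and loads them into the xylem, and in a hyperaccumulator it passes metal on to the shoot in unusual amounts. The shoot carries out photosynthesis, and in green tissue a small set of nuclear transcripts for photosynthetic proteins is commonly very abundant. The contig identifiers used here are not paired with gene names or sequences, so no contig could be assigned to such a function, no sequence is shown and the organ labels could not be checked against marker genes. Contig lengths are likewise not used here. All levels are therefore shares of reads, not of molecules, and a long transcript takes more reads than a short one at the same number of copies.

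The libraries held 59802565 counted reads for root and 84917997 for shoot. Of the 52334 contigs, 39228 reached 10 reads in both organs, 6048 in root only and 7058 in shoot only, and together they took 99.9% of root reads and 99.95% of shoot reads. At the limit itself, 1239 contigs had exactly 10 reads in the organ with more reads, and 1039 contigs just outside had 9. Of all members, 23648 stayed under 100 reads in both organs and 21477 had 100 or more in each. With 1 library per organ there was no spread between replicates, the comparison itself carries no p-value, and every interval given covers counting error only. In bulk tissue, fewer cells of a type and less RNA per cell cannot be told apart.

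Reads were spread unevenly over contigs in both organs, and more so in shoot. The first 25% of all reads was reached with 199 contigs in root and with 65 in shoot. To reach 50% of reads took 1362 contigs in root, 2.07% of the whole set, and 737 contigs in shoot, 1.12%. At 90% of reads the organs were closer, with 10676 contigs in root and 9388 in shoot. Expressed as the number of equally counted contigs that would give the same Shannon entropy, the root library corresponded to 6625 contigs and the shoot library to 4439. The libraries with nickel showed the same order, with 1417 contigs for 50% of reads in root and 951 in shoot. The shoot values without and with nickel differed more from each other (737 and 951) than the root values did (1362 and 1417), but in each condition shoot needed fewer contigs than root.

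**Figure D1:**
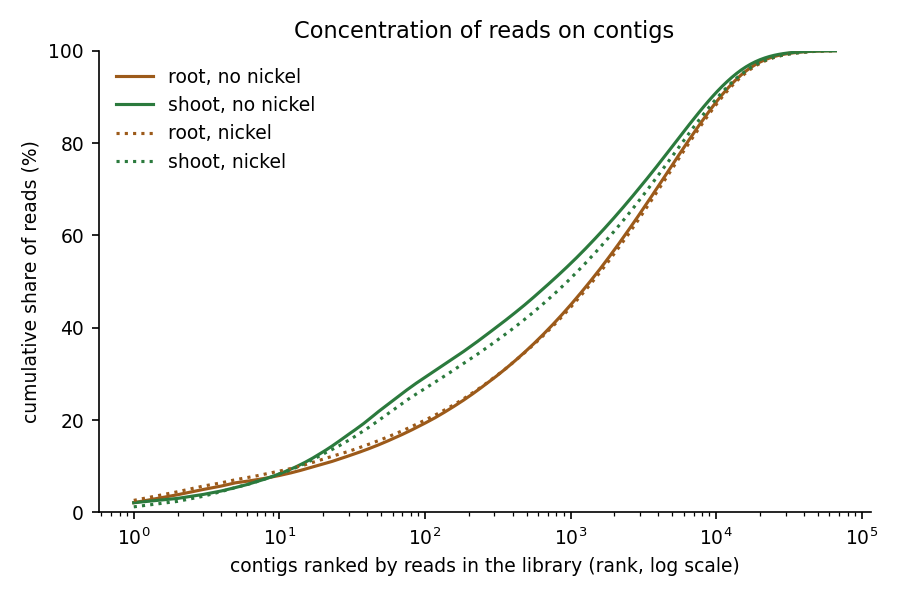
Cumulative share of reads (y axis, %) against the rank of contigs by reads within each library (x axis, log scale), for root (brown) and shoot (green) without nickel (solid) and with nickel (dotted). The curves lie together at rank 10, between 8.0% and 8.94% of reads, and the shoot curves are above the root curves at rank 100, with 29.2% against 19.3% without nickel.

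The difference between organs did not lie among the very first contigs. The 10 contigs with most reads took 8.0% of root reads (95% exact binomial interval 7.99 to 8.01) and 8.36% of shoot reads (8.36 to 8.37). The next band, ranks 11 to 100, took 11.3% in root and 20.9% in shoot. This was the band in which shoot exceeded root most, and ranks 101 to 1000 took similar shares, 25.6% in root and 24.7% in shoot. Ranks 1001 to 10000 took 43.9% of root reads and 37.0% of shoot reads, and the remaining contigs took 11.1% and 9.05%. With nickel, ranks 11 to 100 took 11.0% in root and 18.5% in shoot. The 100th contig had 42988 reads in root and 78323 in shoot, a larger gap than the ratio of library totals, which was 1.42 shoot over root.

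**Figure D2:**
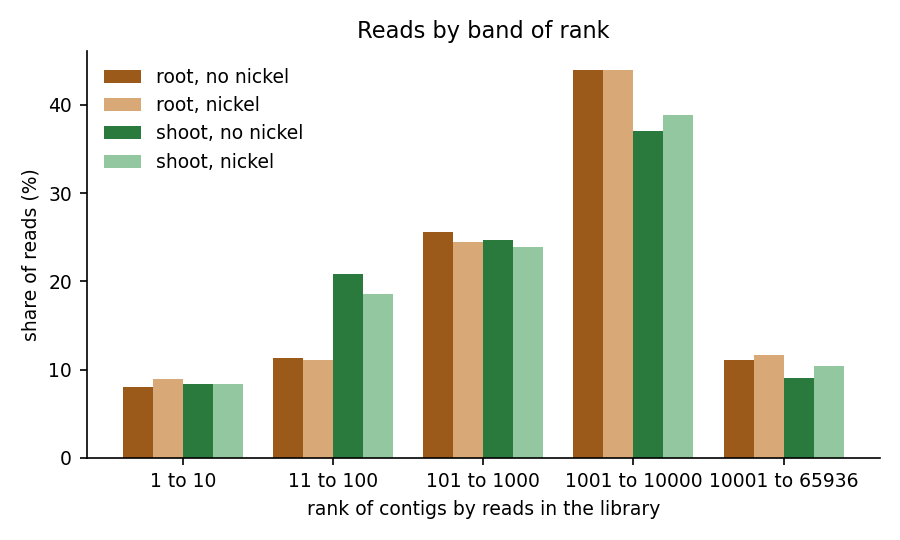
Share of each library's reads (y axis, %) taken by contigs in 5 bands of rank (x axis), for root (brown) and shoot (green) without nickel (dark) and with nickel (light), with 1 library per bar. The organs separate in the band of ranks 11 to 100, at 11.3% and 11.0% in root against 20.9% and 18.5% in shoot, and are close at ranks 1 to 10.

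The very top of both lists was partly common to root and shoot. The most counted contig of root had 1258506 root reads (20995 CPM, reads relative to the TMM-scaled library size) and 789636 shoot reads (10730 CPM), and it ranked 2 in shoot. The second contig of root had 1034904 root reads and 640847 shoot reads and ranked 4 in shoot. The root level of both was close to 2-fold the shoot level, at 1.96-fold (95% exact interval 1.95 to 1.96) and 1.98-fold (1.98 to 1.99). The contig ranked 4 in root and 5 in shoot stood at 7478 CPM in root and 8580 CPM in shoot, 1.15-fold higher in shoot. In all, the 10 most counted contigs of the organs had 4 members in common, the 100 most counted had 24 and the 1000 most counted had 456. Between libraries of the same organ the 100 most counted contigs had 90 members in common in root, without against with nickel, and 85 in shoot.

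A contig was taken as organ-preferential when its level, as log2 CPM with a prior count of 2, differed at least 4-fold between root and shoot and the exact 95% interval of the ratio lay wholly beyond 1.5-fold on that side. The rule measures size and gives no test. It took in 13233 contigs, 25.3% of the 52334, comprising 7170 (13.7%) with the higher level in root and 6063 (11.6%) with the higher level in shoot. The median log2 ratio of root over shoot was 0.04 over all members, the quartiles were -0.98 and 1.11, and 48.3% of contigs lay within 2-fold. Contigs with a mean of 10 CPM or more were closer between organs, with 58.8% of 13927 within 2-fold, compared with 44.5% of the 38407 less abundant ones. Among the more abundant set the balance between organs was the other way round, with 1085 root-preferential and 1322 shoot-preferential. In the highest of 10 equal classes of mean level, 365 contigs were root-preferential and 623 shoot-preferential, whereas the lowest class held 1066 and 983. By total counts in place of TMM, 60.4% of preferential contigs were root-preferential, compared with 54.2% by TMM. With total counts the median log2 ratio was 0.25. Other scalings went the other way. The root-preferential part was 51.8% by TMM over the 2 libraries compared and 52.2% by DESeq2 size factors, and the median log2 ratio was -0.02 by each.

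**Figure D3:**
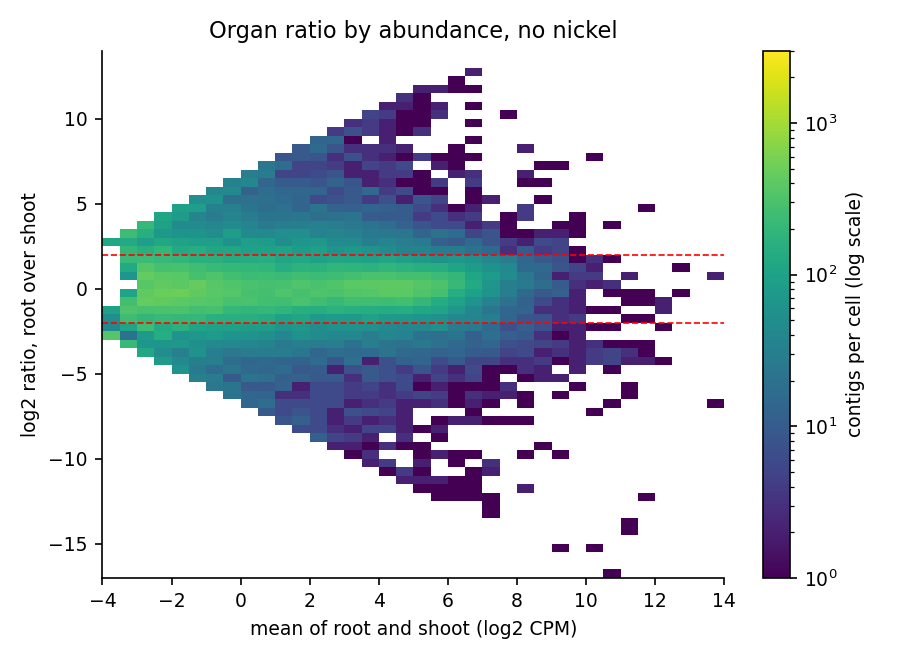
Log2 ratio of root over shoot without nickel (y axis) against the mean level of the 2 libraries (x axis, log2 CPM) for 52334 contigs, drawn as the number of contigs per cell (colour, log scale), with dashed lines at 4-fold. Most contigs lie between the lines (13233 were past the size rule), the sloping edges are contigs with few or no reads in one organ, and in the highest class of mean level 623 contigs were shoot-preferential against 365 root-preferential.

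Although fewer in number, shoot-preferential contigs took a far larger part of their organ's reads. They held 29921257 reads in shoot, 35.2% of that library, and 3.29% of root reads. Root-preferential contigs held 8921677 reads in root, 14.9% of that library, and 1.45% of shoot reads. The typical contig was not much more abundant in one list than in the other, with a median of 1.501 CPM in root for root-preferential contigs and 1.63 CPM in shoot for shoot-preferential ones. The lists separated in their upper tails. The upper quartile was 7.76 CPM in root and 12.4 CPM in shoot, and the 90th percentile was 32.9 CPM and 76.5 CPM. In both lists about the same part was scarce, with 42.1% of root-preferential and 42.1% of shoot-preferential contigs under 1 CPM in the organ where they were higher, and these took 0.133% of root reads and 0.0927% of shoot reads.

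Organ preference was most frequent among the most abundant shoot contigs. Of 107 contigs at 1000 CPM or more in shoot, 74 (69.2%, 95% exact interval 59.5 to 77.7) were shoot-preferential and 0 were root-preferential. Of 60 contigs at 1000 CPM or more in root, 16 (26.7%, 16.1 to 39.7) were root-preferential and 1 was shoot-preferential. Between 100 and 1000 CPM the shares were 26.6% of 1626 contigs in shoot and 14.3% of 1785 in root. Between 10 and 100 CPM they were close, with 10.2% in shoot and 11.1% in root. At lower levels the order was the other way round, with 12.8% in shoot and 17.5% in root between 1 and 10 CPM, and 10.3% and 12.5% under 1 CPM. A high level in an organ itself favours a preference for that organ, so the contigs were also sorted by their level in the library with nickel of the same organ. Sorted that way, 61 of 84 contigs at 1000 CPM or more in shoot (72.6%) were shoot-preferential without nickel, and 14 of 47 in root (29.8%) were root-preferential.

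**Figure D4:**
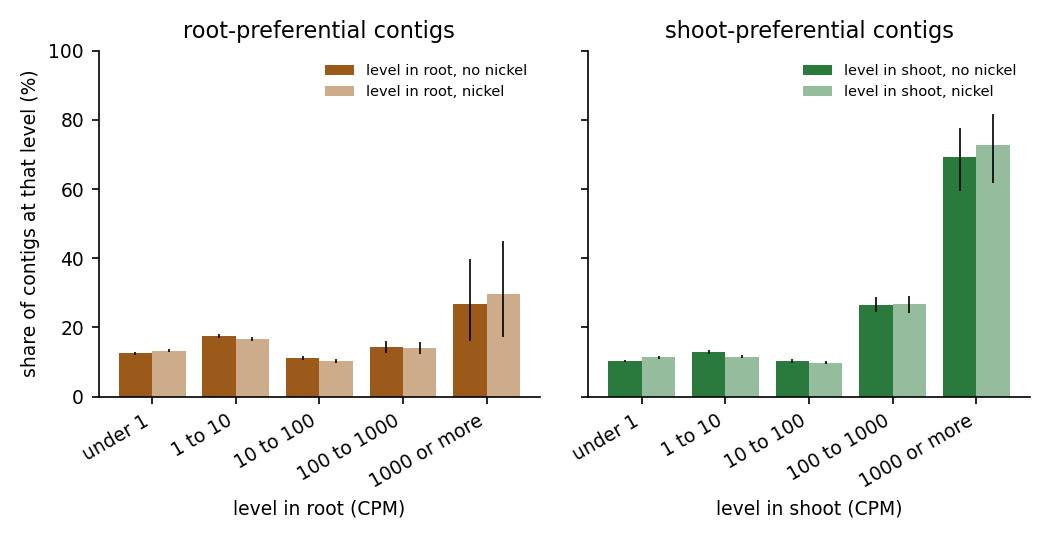
Share of contigs called preferential for the organ without nickel (y axis, %) by their level in that organ (x axis, CPM), in root (left) and shoot (right), with the level read in the library without nickel (dark) or with nickel (light). Bars show 1 value each with exact 95% binomial intervals. The share reached 69.2% at 1000 CPM or more in shoot, against 26.7% in root.

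The 100 most counted contigs of each organ showed the same contrast. In shoot, 70 of them were shoot-preferential, 30 were neither and 0 were root-preferential, and their median log2 ratio of root over shoot was -3.56. They took 29.2% of shoot reads and 11.5% of root reads. In root, 32 were root-preferential, 67 were neither and 1 was shoot-preferential, with a median log2 ratio of 1.29, and they took 19.3% of root reads and 11.4% of shoot reads. When the 100 contigs were chosen in the libraries with nickel and then read in those without, 69 of the shoot contigs were shoot-preferential and 32 of the root contigs were root-preferential. Of the 737 contigs that made up 50% of shoot reads, 308 were shoot-preferential, and of the 1362 for root, 218 were root-preferential. These lists had 407 contigs in common, 55.2% of the shoot list and 29.9% of the root list.

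With the organ-preferential contigs set aside, the reads of root and shoot without nickel were about equally concentrated. The 39101 contigs past neither size held 81.7% of root reads and 63.3% of shoot reads. Among these reads the 100 most counted contigs took 20.86% in root (20.85 to 20.87) and 20.81% in shoot (20.80 to 20.82), and 50% was reached with 1210 contigs in root and 1357 in shoot. Since the same libraries chose the contigs, the step was repeated with contigs that were past neither size in the pair with nickel. The shares of the 100 most counted contigs were then 20.7% in root and 21.3% in shoot. Either choice keeps contigs that differ little between organs, which by itself draws the shares together. The choice without nickel set aside 70 of the 100 most counted shoot contigs. Of the 100 most counted in root it set aside 32 root-preferential and 1 shoot-preferential. What made shoot more concentrated was therefore not tested by this step. Within the libraries with nickel, the choice without nickel gave shares of the 100 most counted contigs of 21.4% in root and 18.1% in shoot. With contigs past neither size in the pair with nickel, chosen from those same libraries, the shares there were 21.4% and 17.9%. By either choice the share in the libraries with nickel was higher in root. Removing the 176 contigs that were among the 100 most counted of either organ changed the ratio of shoot to root total reads from 1.42 to 1.23.

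Since identifiers without gene names say little by themselves, only the 2 most abundant contigs preferential for each organ are named. Lhav_v2_contig_27595 ranked 5 in root, with 417883 reads in root without nickel, 22233 in shoot without nickel, 374745 in root with nickel and 27513 in shoot with nickel. It was higher in both root libraries than in either shoot library, though it still ranked 422 in shoot without nickel. Its root level of 6971 CPM was 23.1-fold (95% exact interval 22.8 to 23.4) the shoot level of 302 CPM, and 22.4-fold with nickel. Lhav_v2_contig_63848 ranked 8 in root, with 187459 reads in root and 17765 in shoot without nickel, and 181622 and 19395 with nickel. This contig was 13.0-fold higher in root without nickel (12.8 to 13.2), at 3127 CPM against 241 CPM, and 15.4-fold higher with nickel.

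In the other direction, Lhav_v2_contig_14 was the most counted contig of shoot without nickel. It had 1790088 reads in that library, 2.11% of the total, 16048 in root without nickel, 1188988 in shoot with nickel and 17611 in root with nickel. Its level in shoot was 24324 CPM, 90.9-fold (89.5 to 92.3) the 268 CPM of root. With nickel the shoot level was 11688 CPM and the organ difference 41.0-fold (40.4 to 41.6), so the sizes differed between conditions while the direction was common to both. Lhav_v2_contig_35 ranked 3 in shoot with 729716 reads, against 26990 in root, and had 1161980 and 34212 with nickel. It was 22.0-fold higher in shoot without nickel (21.8 to 22.3) and 20.6-fold higher with nickel. Another contig among the first 10 of shoot was nearly confined to it in these libraries, with 486196 reads in shoot and 69 in root without nickel, and 448399 and 0 with nickel.

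Most organ-preferential contigs differed by moderate amounts. Of the root-preferential ones, 4140 (57.7%) differed 4- to 10-fold, 2682 (37.4%) 10- to 100-fold and 348 (4.85%) 100-fold or more. For the shoot-preferential ones the numbers were 3797 (62.6%), 1982 (32.7%) and 284 (4.68%). The sizes carried unlike amounts of reads in the organs. In shoot, contigs of 10- to 100-fold took 20.7% of reads, those of 4- to 10-fold 10.5% and those of 100-fold or more 4.08%. In root, contigs of 4- to 10-fold took 8.02%, those of 10- to 100-fold 5.15% and those of 100-fold or more 1.75%. The largest differences belonged to more abundant contigs, with a median of 12.04 CPM in root and 17.9 CPM in shoot in the class of 100-fold or more. The lowest level in that class was 2.67 CPM in root and 2.68 CPM in shoot, since a contig with few reads in its higher organ cannot reach such a ratio.

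Fold sizes of contigs with no read in the other organ depend on how a zero is treated. Among root-preferential contigs 1664 had no read in shoot, and among shoot-preferential contigs 1261 had no read in root. When each zero was replaced by 3 reads, a floor applied per library that equals 0.05005 CPM in root and 0.0408 CPM in shoot, the root-preferential contigs divided into 3890, 2919 and 361 over the same 3 sizes. The shoot-preferential ones divided into 3192, 2170 and 294, and 407 fell under 4-fold. By the prior count, 187 of the 348 root-preferential contigs at 100-fold or more had no read in shoot. For shoot-preferential contigs, 115 of the 284 had no read in root. At the floor, 119 and 73 contigs without a read in the other organ were 100-fold or more. These were fewer, although the class as a whole went from 348 to 361 for root and from 284 to 294 for shoot. Contigs with reads in the other organ had thus changed size as well, so the 2 divisions do not show the treatment of zeros alone. The median size at this floor was 9.08-fold for root and 8.15-fold for shoot, close to the 8.50-fold and 7.63-fold of the log2 ratios with the prior count. These medians likewise mix changes in contigs with and without a read in the other organ. With more than 3 reads in the other organ, where a ratio rests on reads on both sides, there were 4260 root-preferential and 3614 shoot-preferential contigs. Of these, 122 and 119 differed 100-fold or more.

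Contigs counted in a single organ were mostly scarce. Of the 1664 with 10 or more reads in root and none in shoot, 274 had 100 or more root reads, 36 had 1000 or more and 2 had 10000 or more. The same limits in shoot were passed by 187, 29 and 4 of 1261. Together they took 0.361% of root reads and 0.609% of shoot reads, and a single contig with 250802 reads made up much of the shoot figure. Among those with 100 or more reads, 165 of the 274 root contigs also had no read in shoot with nickel, and 127 of the 187 shoot contigs had none in root with nickel. In contrast, 37 of the 274 reached 10 or more reads in shoot with nickel, and 5 of the 187 did so in root with nickel. These limits are not alike, as the libraries with nickel held 98108920 reads for shoot and 55660570 for root. Over all 65936 contigs, 2334 had no read in shoot with nickel and 3514 none in root with nickel. Of the same 65936, 53825 reached 10 or more reads in shoot with nickel and 47771 in root with nickel.

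The organ differences were largely found again in the libraries with nickel. By the same rule, 12.4% of the 52334 contigs were root-preferential with nickel and 11.3% were shoot-preferential. Of the 7170 root-preferential contigs, 4338 (60.5%, 95% exact interval 59.4 to 61.6) were root-preferential with nickel as well, and 6593 (92.0%) had a ratio in the same direction. Of the 6063 shoot-preferential contigs, 3855 (63.6%, 62.4 to 64.8) were shoot-preferential with nickel and 5764 (95.1%) had the same direction. The share of all 52334 contigs that kept their direction is not given here, so 92.0% and 95.1% have no base beside them. These shares include 298 of the 7170 and 187 of the 6063 contigs that had fewer than 10 reads in both libraries with nickel. By size, the share found again rose from 45.1% at 4- to 10-fold to 79.6% at 10- to 100-fold and 96.0% at 100-fold or more in root. In shoot it was 49.6%, 85.3% and 99.3%. A contig far past 4-fold can lose more of its size and still pass the rule, so the rule itself favours this rise. The median log2 ratio toward root in these classes was 2.55, 4.19 and 7.69 without nickel and 1.81, 3.47 and 7.07 with nickel. Toward shoot it was 2.57, 4.10 and 7.88 without nickel and 2.01, 3.65 and 7.63 with nickel. Abundant contigs were found again more often, with 73.2% among root-preferential contigs of 10 CPM or more in root, and 49.9% among those under 1 CPM. The corresponding shares in shoot were 76.5% and 51.9%. The median log2 ratio toward the preferred organ was 3.09 without and 2.48 with nickel for root-preferential contigs, and 2.93 and 2.56 for shoot-preferential ones. The contigs had been chosen for their size in the pair without nickel only. With each pair scaled by itself, the shares found again were 62.7% for root and 62.2% for shoot, so the order of the organs turned with the scaling. The sources used here do not say whether reads of the libraries with nickel went into the assembly of the contigs, and the bearing of this on the shares was not tested.

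An additive model of organ and nickel, which pairs root with shoot within each condition, could be fitted over the 4 libraries with 1 residual degree of freedom. In this fit 6304 contigs (12.0% of the 52334) were higher in root and 5214 (9.96%) higher in shoot by edgeR's quasi-likelihood test at a Benjamini-Hochberg adjusted p under 0.05. Of the 7170 root-preferential contigs 3700 (51.6%) were called in the same direction, and of the 6063 shoot-preferential contigs 3372 (55.6%). In the opposite direction 0 of either list were called. The fit contains the libraries that chose the contigs, and its spread rests on libraries that are not replicates.

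The number in the contig identifier, which played no part in the comparison, went with organ preference. The numbers were divided into 10 equal ranges. In range 1, from 1 to 6594, 4.63% of the contigs with 10 or more reads were root-preferential and 14.9% were shoot-preferential. These 6594 contigs took 58.2% of root reads and 72.1% of shoot reads. From there the root-preferential share rose at each step, to 24.7% in range 9 and 56.7% in range 10, where 5.44% were shoot-preferential. The median log2 ratio of root over shoot was -0.17 in range 1 and 2.54 in range 10. Level fell along the numbers as well, from a median of 29.5 CPM in root in range 1 to 0.217 CPM in range 9, and it was 0.334 CPM in range 10.

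Near the end of the numbering, a break stood out in the share of contigs with no read in shoot with nickel. From number 63900, the first block of 100 numbers in which most contigs had no read in shoot with nickel (a limit chosen after the values were seen), there were 2037 contigs. Of these, 1721 (84.5%) had no read in shoot with nickel and 1182 (58.0%) none in shoot without nickel, whereas 237 had none in root without nickel and 0 had none in root with nickel. Among the 63899 contigs of lower number, 0.959% had no read in shoot with nickel. Of the 1148 contigs of the last block with 10 or more reads, 839 (73.1%, 95% exact interval 70.4 to 75.6) were root-preferential and 33 were shoot-preferential. In the libraries compared, the rise was more gradual. The root-preferential share was 56.1%, 64.2% and 74.5% in the steps of 1000 numbers that start at 62000, 63000 and 64000. In the same steps 33.6%, 39.6% and 55.3% had no read in shoot without nickel, and 2.0%, 15.7% and 83.4% none in shoot with nickel. These 839 made up 11.7% of all root-preferential contigs, whereas the whole block of 2037 took 0.208% of root reads and 0.0355% of shoot reads. Without this block, 6331 contigs were root-preferential and 6030 shoot-preferential, and 55.4% of the root-preferential ones were found again with nickel in place of 60.5%. Over the whole set, 2 contigs had no read in either library with nickel, compared with 1301 without a read in either library without nickel. Fewer than 5 reads in the pair together were counted for 27 contigs with nickel and for 5319 without. The sources used here do not state which libraries the contigs were assembled from, and the part of the assembly in these numbers was not tested.

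**Figure D5:**
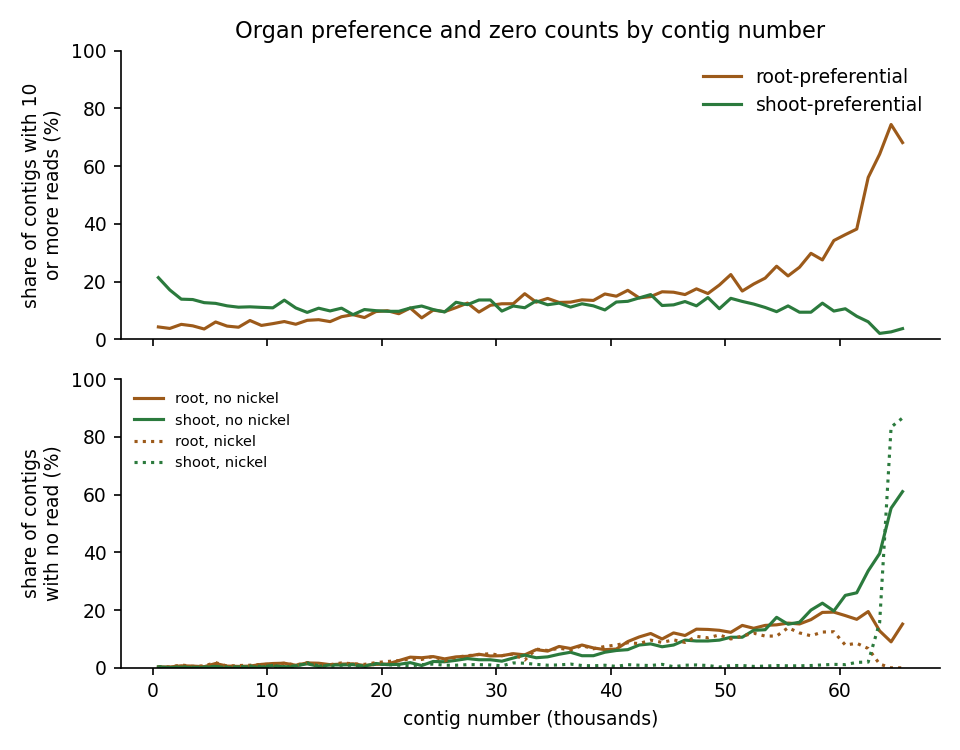
Upper panel, share of contigs with 10 or more reads that were root-preferential (brown) or shoot-preferential (green) without nickel (y axis, %), in steps of 1000 contig numbers (x axis). Lower panel, share of all contigs with no read in each of the 4 libraries; from number 63900 on, 84.5% had no read in shoot with nickel and 0 had none in root with nickel.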

How the data were processed

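Per the labels' protocols, polyA RNA was made into stranded Illumina TruSeq libraries. The deposited files give whole-number read counts per contig, without normalization. The aligner, counter and assembly were not given in the sources used here. TMM factors were computed with edgeR 4.0.16 (R 4.3.3) for all 4 libraries together, from contigs with 10 or more reads in at least 1 of them. CPM and log2 ratios used these sizes, with a prior count of 2 in the ratios. Exact 95% intervals were conditional binomial for ratios and binomial for shares (Python 3.11.15, scipy 1.17.1). Even numbers were in excess among low counts (55.5% of counts from 1 to 20 in root, 59.0% in shoot), and whether both reads of some pairs had been counted was not tested. If so, the intervals are too narrow, and intervals from halved counts were an alternative. Alternatives included DESeq2 1.42.0 size factors and an additive organ and nickel model (edgeR quasi-likelihood), the latter added after the data were seen. The size rule, its ratio intervals and the additive model were checked on simulated counts, and the other values were not. Contigs were named by rule, the 2 per direction with the highest CPM in the organ where they were higher; other contigs appear by rank. The contigs, size rule and lists were chosen with earlier results of these data known.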

Additional observations from a re-analysis of the deposited data

Results flagged for a closer look

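In 60 of the 7170 root-preferential contigs the organ preference was opposite with nickel, where they were at least 4-fold higher in shoot. Another 66, of the 6063 shoot-preferential contigs, were higher in root with nickel. Over all 52334 contigs, 11.3% were shoot-preferential with nickel and 12.4% root-preferential, so such opposite calls were few. They were flagged because the same organ contrast had opposite directions in the 2 conditions. Under 1 CPM in the organ preferred without nickel were 42 of the 60 and 20 of the 66. With 1 library per group the difference was not tested. Of contigs with a mean of 10 CPM or more without nickel, 0 were among the 60 and 5 among the 66.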

How the results depend on the processing

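Each share is given in one order, with percentages for root reads on root-preferential contigs, shoot reads on shoot-preferential contigs, root-preferential contigs found again with nickel and shoot-preferential contigs found again with nickel (reported as 14.9%, 35.2%, 60.5% and 63.6%). The first pair rests on so many reads that small shifts exceed its counting interval. TMM over the 2 libraries compared gave 14.2%, 35.99%, 62.7% and 62.2%. DESeq2 size factors gave 14.2%, 35.97%, 62.3% and 61.1%. Total counts gave 18.4%, 33.7%, 58.8% and 65.98%. A prior count of 0.5 moved the first pair to 14.95% and 35.3%. With a prior count of 5 they were 14.8% and 35.2%, and the last was 64.97%. Thinning to the smallest total gave 14.9% and 35.3%, with 65.2% for the last. Without a filter the third was 59.0%. With 50 or more reads required, 8367 contigs were organ-preferential, 4413 for root and 3954 for shoot, with shares of 14.8%, 35.2%, 68.0% and 70.99%. An 8-fold size gave 6756, 3841 and 2915 contigs, 8.29%, 27.3% and, for the third, 58.1%. Intervals from halved counts gave 14.9%, 35.2%, 62.5% and 65.4%. Added after the data were seen, leaving out numbers from 63900 gave 14.8% and, for the third, 55.4%. A mean of 10 CPM or more, also added then, gave 2407, 1085 and 1322 contigs with 13.2%, 34.2%, 73.4% and 77.1%.

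The 100 most counted contigs took 19.3% of root and 29.3% of shoot reads over members only. Without the most counted contig these were 17.7% and 27.8%, and without the first 10 they were 13.1% and 23.8%. Of 110 recalculations of the 11 counts and shares, 57 stayed within 1.5 times the count or within the counting interval of the share. The 4 named contigs stayed past the size rule in their direction in all 24 recalculations. They were named for their abundance among organ-preferential contigs, and the smallest of their differences was 13.0-fold. These settings could therefore hardly have brought them under 4-fold. No replicate could be left out, as that would empty its group. No analysis paired by replicate number was possible, because the groups have a single number in common. Pairing by plantlet was not possible either, as the sources used here do not state whether root and shoot came from the same plantlets. Pairing by condition, in the additive model added after the data were seen, called 11518 contigs (edgeR), within 1.5 times the 13233. That model sets no limit on size, and the totals do not stand for the same contigs. In common were 3700 root-preferential and 3372 shoot-preferential contigs. Of the organ-preferential contigs under 100 reads in both organs, 81.8% of 6565 were called in the same direction after thinning, compared with 97.9% of 6668 with more reads.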
